A study of Sus scrofa with 150 samples.

Results

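The liver transcripts of 9 enzymes of amino acid breakdown were followed across 150 pigs: GPT, BCKDHB, BCKDHA, SDS, FAH, GNMT, QDPR, HPD and TAT. They were chosen by gene symbol in the array's annotation, and all 9 were found, on 11 of the 10069 probe sets that carry a single symbol and among 6765 named genes. The genes had been put together because earlier results of the same arrays placed most of them among the transcripts that were higher in pigs with more back fat. Their relation to fat area is therefore a description here, without a test, and it supports nothing else in the text. The pigs were slaughtered at a mean end weight of 110 kg and formed 1 group, commercial crossbreds labelled Pix(DLxDE), with no treatment and no control. One Affymetrix Porcine Genome Array was hybridised per liver. The labels give 2 traits for each pig, fat area over the long back muscle (8.1 to 26.7 cm2) and drip loss, the weight that a hung piece of this muscle loses (1.45 to 10.82%). The animals' age, sex, family, time of day and time since the last meal were not used here because the labels carry none of them.

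Amino acids that are not needed for protein are stripped of their nitrogen in the liver, which sends the nitrogen to urea and the carbon to glucose, ketone bodies or oxidation. GPT moves the amino group of alanine to a keto acid, and SDS splits serine into pyruvate and ammonia. QDPR restores the tetrahydrobiopterin that phenylalanine hydroxylase consumes, and TAT, HPD and FAH are the first, second and last steps of tyrosine breakdown. GNMT uses up methyl groups from S-adenosylmethionine. BCKDHA and BCKDHB are the alpha and beta subunits that together form the decarboxylase of the branched-chain keto acid dehydrogenase complex. TAT and SDS are textbook targets of glucocorticoids and glucagon.

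The RNA had the profile of liver. All 7 hepatocyte markers were bright, with means from 12.09 to 13.93 on the log2 scale, ALB and APOA1 among the brightest. Fat and muscle markers were dim, ADIPOQ averaging 5.07 and CKM 4.97, near the array median of 5.95 or below it. Markers of other cells were mixed, with means from 4.39 for CFTR of bile duct to 11.11 for AMY2 of the pancreas list. The other measured genes of the pancreas list, CPA1 (6.03) and CELA1 (4.88), were dim. CD14 of macrophages (10.69) and ACTA2 (10.01) and COL1A2 (9.9) of stellate cells and fibroblasts were among the bright ones. The other macrophage markers averaged 9.2 (VSIG4), 8.81 (CD163) and 5.76 (MARCO). The other stellate cell and fibroblast markers averaged 7.61 (DCN), 6.33 (DES), 5.78 (COL3A1) and 4.53 (LUM). In whole tissue, fewer cells of a type and less RNA per cell cannot be told apart. By their correlation with the other arrays 13 arrays stood apart, and results that change without them are named where they occur. P-values measure the spread between pigs, and how the pigs were sampled from litters is not given.

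SDS varied far more from liver to liver than any other of the 9 transcripts. Its log2 signal ran from 4.41 through a median of 7.895 to 12.01, and 21 of its 150 values lay under 6, where signals are dim. The SD was 1.56, which ranked 7 among 6765 named genes, whose median SD was 0.274. Livers at the 90th and 10th percentile differed 16.2-fold. TAT came next, from 10.04 through a median of 11.7 to 13.04 (SD 0.597, rank 285), an 8-fold range. A second TAT probe set followed the first with r = 0.901 and spanned 21.7-fold. These are the enzymes that remove the nitrogen of serine and of tyrosine.

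The other 7 transcripts were steadier. GNMT ran from 9.96 through 11.37 to 13.09 (SD 0.478), an 8.75-fold range. GPT was dim, from 4.83 through 6 to 6.84 (SD 0.403), and 75 of its 150 values lay under 6, not far above the floor of 4.09 that all arrays share. HPD ran from 10.64 through 11.73 to 12.68 (SD 0.392), and QDPR from 10.84 through 11.785 to 12.62 (SD 0.355). The second QDPR probe set followed the first with r = 0.824. The pair of dehydrogenase subunits had SDs close to the median of all genes: BCKDHB ran from 9.06 through 10.21 to 10.95 (SD 0.281) and BCKDHA from 7.82 through 8.565 to 9.31 (SD 0.265). FAH was the steadiest, from 10.13 through 10.87 to 11.54 (SD 0.243), a 2.66-fold range. No value of any of the 9 lay at the floor.

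**Figure D1:**
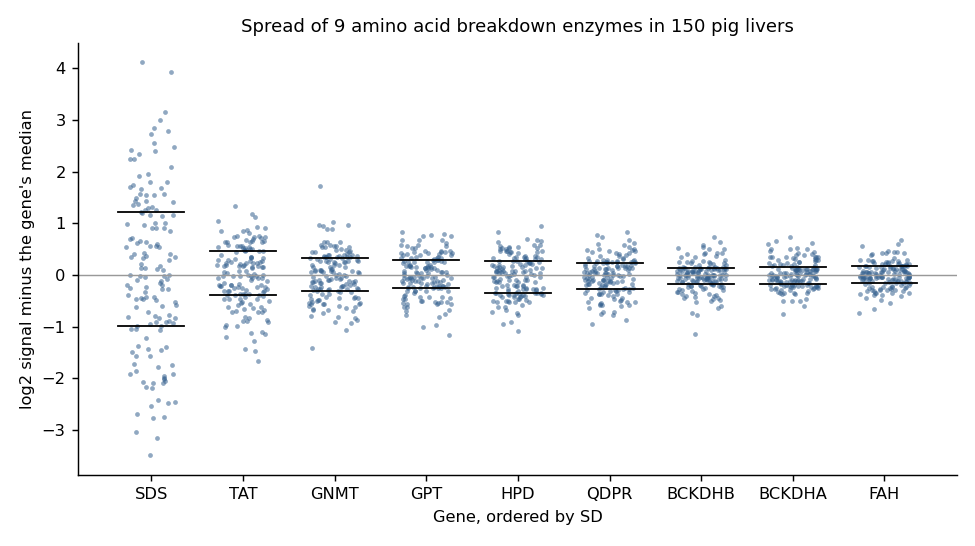
Log2 signal of each enzyme minus that enzyme's median (y axis) in 150 livers (1 point per pig), genes ordered by SD on the x axis, with black lines at the quartiles. SDS reaches from 4.41 to 12.01 before centring, whereas FAH stays between 10.13 and 11.54.

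The comparison of the enzymes with each other asked which of them rise and fall together from pig to pig. Of the 36 pairs 22 were called, all positive, where a pair counted as called when the slope in both directions had an adjusted p under 0.05 over all probe sets. Pearson's r was above 0 for 33 pairs. A choice of genes that share a relation with fat area favours positive pairs, and with fat area as a covariate 16 of the 22 stayed called. Each count has to be read against the share of all named genes that rose with the same enzyme. FAH rose with 7 of its 8 partners, while 16.8% of named genes did so. BCKDHB, GNMT and HPD rose with 6 partners each, against 10.4%, 10.9% and 11.6% of genes. QDPR rose with 5 partners and GPT and SDS with 4, against 22.6%, 8.35% and 8.07%. BCKDHA and TAT rose with 3 each, against 28.5% and 3.18%, so the count for BCKDHA was close to its background in a set of 8. The counts of falling partners were 0 throughout. Without the 13 arrays that stood apart 15 pairs were called. The pairs lost were those of BCKDHB with GPT, FAH and HPD, of BCKDHA with QDPR and HPD, of SDS with FAH and of QDPR with HPD. FAH then had 5 partners, BCKDHB, GPT, HPD, QDPR and SDS 3 each and BCKDHA 1, whereas GNMT kept 6 and TAT 3. The share of all named genes that rose without these arrays is not given, so these reduced counts have no background.

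The closest pair was SDS and TAT. SDS rose with TAT across the 150 livers with r = 0.70 (rho = 0.69; permutation p = 1e-05 for each, the smallest possible, and 8.4e-05 and 9.69e-05 after adjustment over all pairs and reference gene relations). Per SD of SDS, the log2 signal of TAT was higher by 0.42 (SE 0.035; limma adjusted p = 4.25e-20). The correlation was 0.691 without the 2 pigs of most extreme SDS, 0.691 given fat area, 0.728 given array median and RNA quality measures, and 0.70 without the 13 arrays. The plot of SDS against TAT shows a single broad cloud. No other named gene had a higher r with SDS.

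A second set of close pairs ran through FAH. FAH rose with HPD, the enzyme at the second step of the same pathway, with r = 0.499 (rho = 0.495), with QDPR at r = 0.49 (rho = 0.443), with GPT at r = 0.478 (rho = 0.481) and with GNMT at r = 0.455 (rho = 0.446). The permutation p was 1e-05 for each of these, the smallest possible, and 8.4e-05 for r and 9.69e-05 for rho after adjustment. Each of these r was positive in all 10 blocks of pigs with neighbouring title numbers. GPT and QDPR had r = 0.438 (rho = 0.453, permutation p = 1e-05 for each, adjusted 8.4e-05 and 9.69e-05). GNMT was tied to both sets, with r = 0.47 to SDS and 0.324 to TAT as well as 0.415 to HPD. BCKDHB rose with GNMT (r = 0.466), TAT (r = 0.356) and SDS (r = 0.31). These pairs of BCKDHB stayed called under every alternative that could be fitted. Its pairs with GPT (r = 0.255), FAH (r = 0.228) and HPD (r = 0.225) did not, and that with QDPR was not called (r = 0.152).

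TAT stood outside the second set even though it opens tyrosine breakdown. Its r was -0.031 with FAH, 0.00065 with HPD and -0.131 with QDPR, and none of these pairs was called (adjusted p = 0.878, 0.998 and 0.363). GSTZ1, which acts between HPD and FAH, rose with FAH (r = 0.409, adjusted p = 1.47e-05) and was not called with HPD (r = 0.18, adjusted p = 0.124) or TAT (r = -0.053, adjusted p = 0.77). SDS and QDPR were likewise not called, with r = 0.067 (adjusted p = 0.611).

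**Figure D2:**
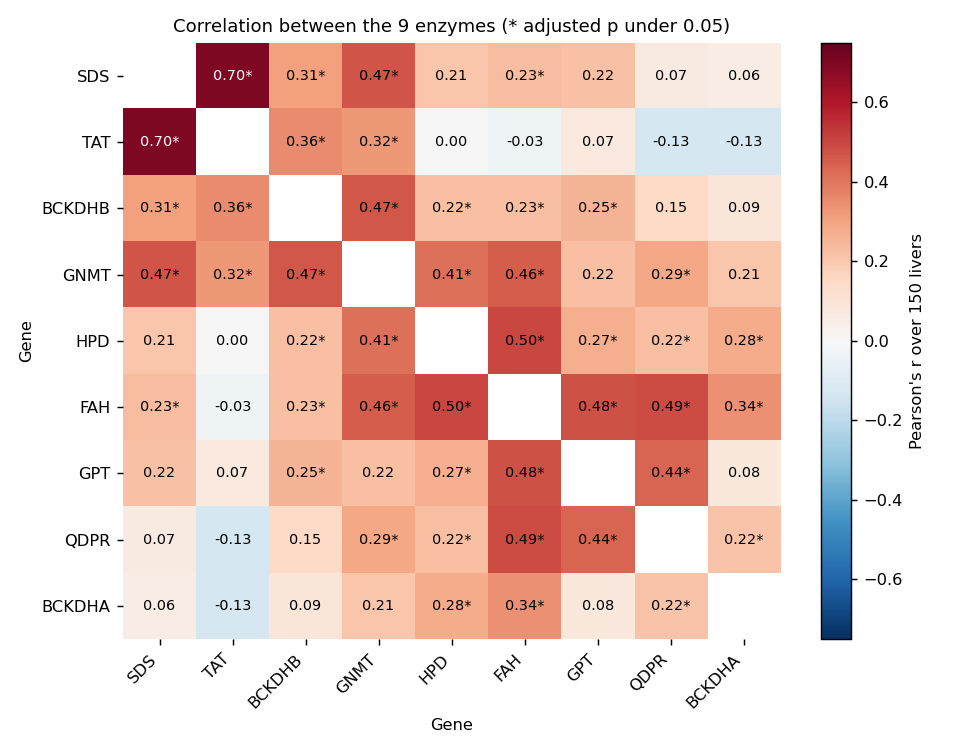
Pearson's r between the 9 enzymes over 150 livers, red for positive and blue for negative; both axes list the genes, and a star marks pairs with an adjusted p under 0.05 in both directions. SDS and TAT share the darkest cell at 0.70, a block of FAH, HPD, GPT, QDPR and GNMT is mostly starred, and BCKDHA with BCKDHB is near 0.

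BCKDHA and BCKDHB, whose proteins work as partners, did not move as partners in RNA. Their r was 0.089 (rho = 0.046, permutation p = 0.282 and 0.576, adjusted 0.39 and 0.672; limma adjusted p = 0.553), and -0.0073 without the 13 arrays. The other parts of the complex were read from further probe sets: DBT is its acyltransferase core, DLD its lipoamide dehydrogenase and BCKDK the kinase that switches it off. BCKDHA fell with DBT (r = -0.394, rho = -0.356, limma adjusted p = 7.9e-06) and with DLD (r = -0.38, rho = -0.354, adjusted p = 1.71e-05). It rose with BCKDK, r being 0.505 (rho = 0.479, adjusted p = 5.52e-09). BCKDHB rose with DBT (r = 0.292, rho = 0.343, adjusted p = 0.00596) and was not called with DLD (r = 0.161, adjusted p = 0.194) or BCKDK (r = -0.161, adjusted p = 0.206). IVD, the next enzyme of leucine breakdown, rose with BCKDHB (r = 0.461, adjusted p = 8.87e-07) and with BCKDHA (r = 0.264, adjusted p = 0.00405).

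Part of these values moved with the overall level of the array. DBT and DLD rose with the array median (r = 0.629 and 0.732), and BCKDHA and BCKDK fell with it (r = -0.359 and -0.527). Given the array median and the 3 prime to 5 prime differences of actin and GAPDH, r became -0.234 for BCKDHA with DBT, -0.156 with DLD and 0.382 with BCKDK. For BCKDHB with DBT it became 0.373. With IVD it became 0.101 for BCKDHA and 0.524 for BCKDHB. The correlation of DBT with DLD fell from 0.753 to 0.557 in the same adjustment. Whether array level produced the remaining values was not tested.

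**Figure D3:**
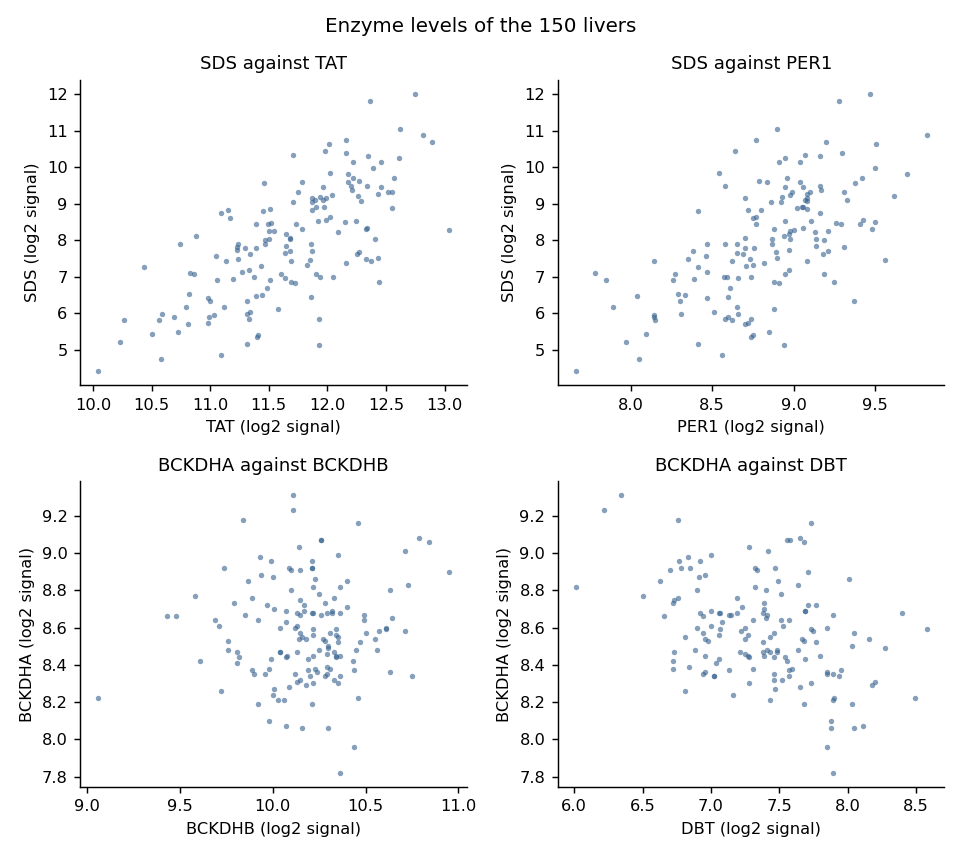
Log2 signals of 150 livers (1 point per pig) for 4 pairs of genes, each axis a log2 signal: SDS against TAT, SDS against PER1, BCKDHA against BCKDHB and BCKDHA against DBT. The upper clouds rise (r = 0.70 and 0.61), the lower left cloud has no slope to speak of (r = 0.089), and the lower right cloud falls (r = -0.394).

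The remaining genes of amino acid breakdown show how far each enzyme shared its course with its pathway. Of 86 listed genes, 41 that are not among the 9 were measured. BCKDHB was the enzyme most often joined by them: 23 of 41 rose with it and 0 fell, where 10.4% of all genes rose and 4.26% fell, their median slope being 0.093 against 0.0018 over all genes. ALDH7A1 of lysine breakdown (r = 0.515), GCDH, also of lysine breakdown (r = 0.492), IVD (r = 0.461) and HOGA1 of hydroxyproline breakdown (r = 0.445) were among these. With GPT 15 rose and 0 fell, against 8.35% and 7.16%, AMT of glycine cleavage (r = 0.474) and GCAT of threonine breakdown (r = 0.434) among them. With FAH 17 rose and 3 fell, against 16.8% and 12.5%. With GNMT 14 rose and 1 fell, against 10.9% and 7.3%, and 9 rose without the 13 arrays. CTH, which makes cysteine from cystathionine, was the closest (r = 0.57). With HPD 8 rose and 0 fell, against 11.6% and 6.77%. SDS had 7 higher and 0 lower, against 8.07% and 13.1%, and TAT 4 higher and 0 lower, against 3.18% and 5.25%. OAT, which degrades ornithine, was shared by both (r = 0.427 and 0.405). Without the 13 arrays the counts of rising genes were 20 for BCKDHB, 12 for GPT, 10 for HPD, 5 for SDS and 4 for TAT. With FAH 15 then rose and 2 fell. No share of all genes is given for the counts without these arrays.

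BCKDHA and QDPR gave a mixed picture. With BCKDHA 13 of the 41 rose and 11 fell, where 28.5% of all genes rose and 21.5% fell. KYNU of tryptophan breakdown (r = -0.465) and DBT fell most clearly, and GSTZ1 rose (r = 0.487). With QDPR 13 rose and 6 fell, against 22.6% and 22.7%. Without the 13 arrays 11 rose and 11 fell with BCKDHA, and 9 rose and 6 fell with QDPR. The shares over all arrays were near the background, so the counts for BCKDHA and QDPR say nothing particular about amino acid breakdown.

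Of the 5 measured urea cycle genes, 5 rose with BCKDHB, where 10.4% of all genes did, OTC most closely (r = 0.465). With GNMT 4 of 5 rose, against 10.9%, led by ASL, the lyase that releases fumarate (r = 0.704), ASS1 (r = 0.477) and ARG1 (r = 0.468). With SDS and with HPD 3 of 5 rose (8.07% and 11.6%), and with FAH 2 of 5 (16.8%), ASL among them at r = 0.624. With TAT only ARG1 of the 5 was called (r = 0.395, background 3.18%). With QDPR ASL rose (r = 0.478) and OTC fell (r = -0.382), against 22.6% and 22.7%. With BCKDHA ASL rose (r = 0.329) and OTC (r = -0.283) and CPS1 (r = -0.258) fell, against 28.5% and 21.5%. With GPT 1 rose, against 8.35%.

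Fat area, the trait that led to the choice of genes, is given as a description. The log2 slope per SD of fat area was positive for 8 of the 9: 0.364 for SDS, 0.142 for GPT, 0.134 for GNMT, 0.101 for BCKDHB, 0.092 for TAT, 0.088 for QDPR, 0.085 for HPD and 0.071 for FAH. BCKDHA was the exception at -0.020. Across all named genes 0.118% were called higher and 0.0443% lower with fat area. Among 6765 slopes SDS ranked 4 from the top, GPT 14 and GNMT 20, whereas BCKDHA ranked 5171. A slope in log2 units grows with a gene's spread, which was largest for SDS (SE of its slope 0.122). By r with fat area the order was BCKDHB (0.36), GPT (0.353), FAH (0.293), GNMT (0.28) and QDPR (0.248). SDS (0.234), HPD (0.216), TAT (0.155) and BCKDHA (-0.077) followed. The genes just outside the choice, of the same pathways, were OAT with 0.129, ALDH7A1 with 0.117 and IVD with 0.102. In all, 35 of the 41 other genes had a positive slope, with a median of 0.050 against -0.0021 over all genes.

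The tails of the trait overlapped for each of the 9. In the 30 pigs with the largest fat area, averaging 20.2 cm2, SDS ran from 5.8 through a median of 8.93 to 11.82, and in the 30 with the smallest, averaging 11.3 cm2, from 4.41 through 7.075 to 10.89. The means differed 2.48-fold, and 24 of the 30 fatter pigs lay above the leaner pigs' median. GNMT ran from 11.05 through 11.63 to 12.33 in the fatter and from 9.96 through 11.125 to 11.88 in the leaner pigs, a 1.37-fold difference of means. GPT ran from 5.38 through 6.36 to 6.84 and from 4.83 through 5.905 to 6.59, or 1.32-fold. For BCKDHB, FAH and GNMT 27 of the 30 fatter pigs lay above the leaner pigs' median. For BCKDHA only 10 did, and the ratio of means was 0.93.

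EIF1AY, a Y-linked gene, averaged 6.06 in the fatter and 4.66 in the leaner tail. It also moved with 3 of the 9 across all pigs, where 0.917% of genes rose with it: per SD of EIF1AY, GNMT rose by 0.173 (SE 0.036, limma adjusted p = 0.00245), BCKDHB by 0.089 (SE 0.022, adjusted p = 0.0201) and FAH by 0.069 (SE 0.019, adjusted p = 0.0469). With EIF1AY as a covariate the slope on fat area was 0.145 for GPT and 0.266 for SDS. It was 0.079 for both GNMT and BCKDHB, 0.053 for FAH and 0.0049 for BCKDHA. For QDPR it was 0.066, for HPD 0.070 and for TAT 0.063. GPT thus kept its slope, and that of GNMT went from 0.134 to 0.079.

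**Figure D4:**
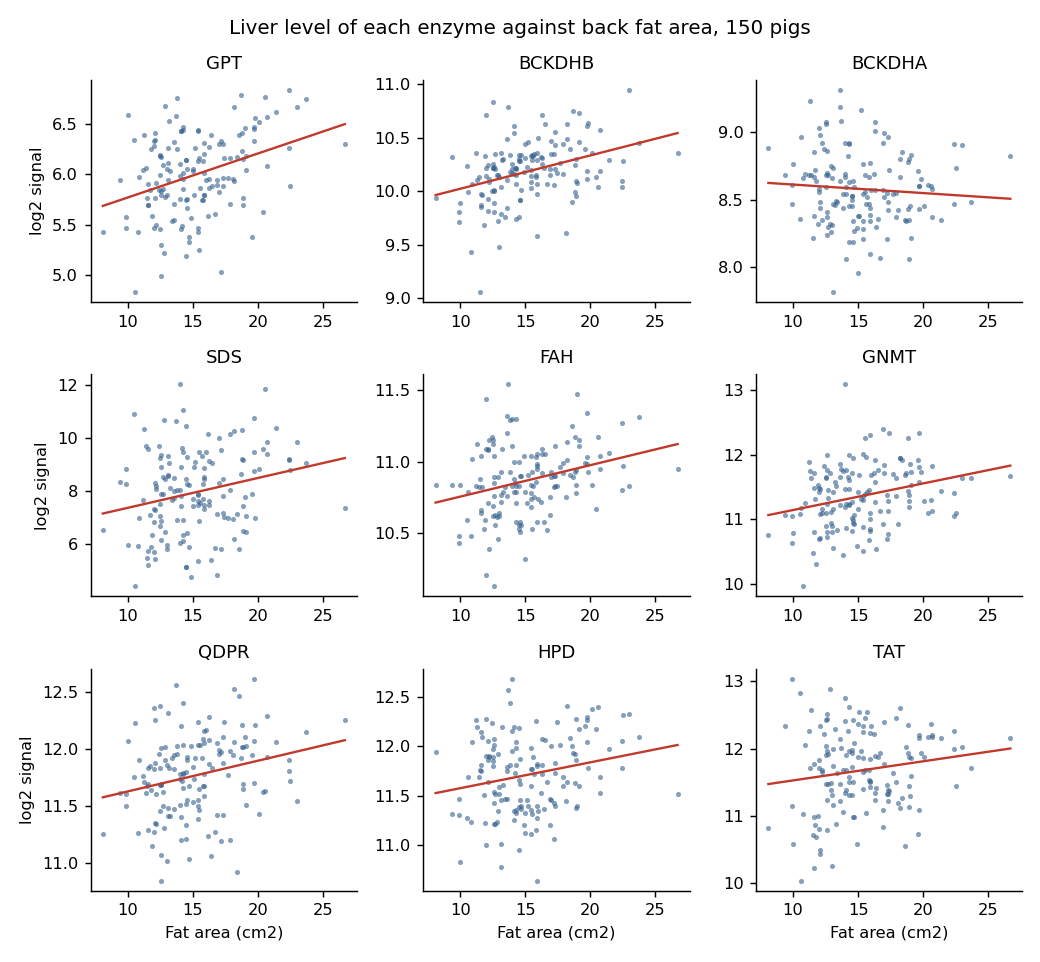
Log2 signal of each enzyme (y axis) against fat area in cm2 (x axis) for 150 pigs (1 point each), with the least-squares line. The lines rise in 8 panels, fall slightly for BCKDHA, and the scatter around them is wide throughout.

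Drip loss, a trait of meat quality that the choice of genes did not use, was not measurably related to any of the 9. None was called (0 of 9, where 0.0% of named genes were called). Over all 23999 probe sets limma called 0, with 2638 at an unadjusted p under 0.05. Of the 9 slopes 7 were negative, and 1 gene, QDPR, had an unadjusted p under 0.05. QDPR had a slope of -0.086 (SE 0.028) per SD of drip loss, an unadjusted p of 0.00241 and an adjusted p of 0.314, with r = -0.244 (permutation p = 0.00257) and rho = -0.237 (permutation p = 0.00366). In the 30 pigs with the highest drip loss QDPR ran from 10.92 through 11.715 to 12.23, and in the 30 with the lowest from 11.01 through 11.91 to 12.41, so the tails overlapped. The second QDPR probe set had -0.078 (SE 0.029, adjusted p = 0.34). QDPR also rose with the number in the sample titles (r = 0.366), whose meaning is not given, and with the means of the title blocks removed r was -0.202. The adjusted p of the other 8 lay between 0.461 and 0.992, the lowest being that of FAH.

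The comparison with genes of the clock, of fasting and of nutrient state asked what else in the liver each enzyme tracked. The 10 genes used as references were DBP, ARNTL, NFIL3 and PER1 of the circadian clock, CPT1A, PLIN2 and PCK1 of fasting, FKBP5 of the glucocorticoid response, ASNS of amino acid shortage and SCD of fat synthesis. DBP, PLIN2, CPT1A and ASNS were, like most of the 9, already known to follow fat area. This favours calls with them, so results given fat area stand beside. In the 30 fatter and 30 leaner pigs DBP averaged 8.22 and 7.58, CPT1A 9.67 and 10.28, and PLIN2 7.27 and 8.13. Of the 90 relations 25 were called, 12 higher and 13 lower, and 18 of these stayed called given fat area. The share of all named genes called differed widely between the reference genes. With FKBP5 56.8% were called in either direction, whereas 2.81% fell with PCK1. The count of 25 therefore has no single background and says nothing particular about these enzymes by itself. The share for each reference gene is given with its results below. With 5 principal components as covariates 8 of the 25 stayed called, those of SDS and of TAT with PER1 and FKBP5, of BCKDHB with DBP and PLIN2, of FAH with DBP and of GNMT with ASNS. HPD had 0 of 10 called, with r between -0.175 and 0.175. By rank HPD rose with PCK1 (rho = 0.269, permutation p = 0.00078, adjusted 0.00349), where r was 0.175 (adjusted permutation p = 0.0634).

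PER1, a clock repressor that glucocorticoids also induce, had the closest relations to any of the 9, and they were to SDS and TAT. Per SD of PER1, SDS rose by 0.95 (SE 0.1, limma adjusted p = 2.87e-13), with r = 0.61 (rho = 0.612). TAT rose by 0.37 (SE 0.038, adjusted p = 7.07e-14), with r = 0.623 (rho = 0.586). All 4 of these correlations had a permutation p of 1e-05, the smallest possible (8.4e-05 for r and 9.69e-05 for rho after adjustment). GPT was also called, at the edge, with r = 0.222 (adjusted p = 0.0494), but not given fat area (0.0634) or without the 2 pigs of most extreme PER1 (0.114), so 3 of 9 rose with PER1 where 5.28% of named genes did. A second PER1 probe set, dimmer at a mean of 6.32, correlated with the first at only 0.176. SDS still rose with it, by 0.43 (SE 0.12, adjusted p = 0.0281), but TAT was not called (slope 0.13, SE 0.047, adjusted p = 0.13), and the slope of GPT was -0.024. The relation of TAT to PER1 therefore rests on 1 probe set, and that of SDS was weaker with the second (r = 0.275 against 0.61). Which of the 2 probe sets measures PER1 could not be checked.

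FKBP5, a cochaperone of the glucocorticoid receptor that glucocorticoids induce, divided the enzymes. TAT rose with it by 0.20 (SE 0.046, r = 0.335, adjusted p = 9.95e-05) and SDS by 0.39 (SE 0.12, r = 0.252, adjusted p = 0.00451). QDPR fell with it (r = -0.323, adjusted p = 0.000201), as did BCKDHA (r = -0.21, adjusted p = 0.0242) and FAH (r = -0.194, adjusted p = 0.0383). FKBP5 was called with 56.8% of named genes in either direction, so 5 of 9 was near the background. Given the array median and RNA quality r became 0.417 for TAT and 0.459 for SDS, but -0.211 for QDPR, -0.0497 for BCKDHA and -0.0665 for FAH. With the array median as a covariate BCKDHA, FAH and QDPR were no longer called (adjusted p = 0.725, 0.63 and 0.0603), nor were they with 5 principal components (0.996, 0.921 and 0.982).

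Most genes of the glucocorticoid list rose with SDS and with TAT. With SDS 6 of its 8 measured genes rose and 1 fell, against 8.07% and 13.1% of all genes. SGK1, a kinase (r = 0.374), ZFP36, which destabilises mRNA (r = 0.369), and TSC22D3, also called GILZ (r = 0.35), rose, and the receptor gene NR3C1 fell (r = -0.32). With TAT 6 rose and 0 fell, against 3.18% and 5.25%, SGK1 (r = 0.43), FKBP5 and KLF9 (r = 0.318) among them. With QDPR 0 rose and 3 fell, against 22.6% and 22.7%, KLF9 most (r = -0.404), and 2 fell without the 13 arrays. KLF15, a transcription factor of amino acid breakdown that glucocorticoids induce, rose with TAT at r = 0.619 (adjusted p = 6.45e-14) and with SDS at r = 0.39 (adjusted p = 7.11e-05).

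Transcription factors of the C/EBP family split the enzymes in a like way. They belong to a list of liver transcription factors of which 7 were measured. With SDS 3 of the 7 rose and 0 fell, against 8.07% and 13.1% of all genes. With TAT 3 rose and 1 fell (3.18% and 5.25%), and with QDPR 1 rose and 4 fell (22.6% and 22.7%). CEBPB, a factor of the acute and fasting response, rose with SDS (r = 0.422, adjusted p = 1.32e-05) and TAT (r = 0.417, adjusted p = 3.85e-05), and CEBPD rose with SDS (r = 0.381) and TAT (r = 0.309). Both fell with QDPR, at r = -0.232 for CEBPB and -0.284 for CEBPD. CEBPA, the factor of resting hepatocytes, rose with BCKDHB (r = 0.35), HPD (r = 0.341), BCKDHA (r = 0.333), FAH (r = 0.308) and QDPR (r = 0.232), and fell with TAT (r = -0.272, adjusted p = 0.0187). With each of BCKDHB, HPD, BCKDHA and FAH 1 of the 7 rose and 0 fell. The shares of all genes that rose were 10.4%, 11.6%, 28.5% and 16.8%, so 1 of 7 was near or below the background.

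DBP, the D-box factor whose level follows the clock, rose with 4 of the 9, while 13.4% of all genes rose with it. BCKDHB rose by 0.12 per SD of DBP (SE 0.021, r = 0.442, rho = 0.416, limma adjusted p = 2.41e-06; permutation p = 1e-05 for each). QDPR had r = 0.299 (adjusted p = 0.00267), GPT 0.285 (adjusted p = 0.00451) and FAH 0.244 (adjusted p = 0.0196). Given fat area BCKDHB (adjusted p = 0.000222) and QDPR (0.022) stayed called, and GPT (0.0737) and FAH (0.142) did not. FAH was also not called given the array median (adjusted p = 0.0723). ARNTL, the clock activator that peaks apart from DBP, fell with QDPR (r = -0.322, adjusted p = 0.0038) and GPT (r = -0.253, adjusted p = 0.0264), where 3.84% of genes fell. NFIL3, which competes with DBP for its sites, fell with QDPR alone among the 9 (r = -0.356, adjusted p = 0.00044, background 3.55%). Without the 13 arrays the ties of GPT to DBP (adjusted p = 0.0651) and ARNTL (adjusted p = 0.13) were not called, and that to ARNTL was also lost given fat area (adjusted p = 0.0999). With 5 principal components all ties of QDPR and GPT to DBP, ARNTL and NFIL3 named here were lost, with adjusted p between 0.438 and 0.559.

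Of the 27 relations of the enzymes with the fasting genes CPT1A, PLIN2 and PCK1, 5 were called lower, with GPT, QDPR or BCKDHB, and 2 higher, both with BCKDHA. Each of the 2 higher calls was 1 of 9, near the backgrounds of 12.4% for CPT1A and 13.8% for PLIN2. CPT1A, which carries fatty acids into mitochondria, fell with GPT (r = -0.341, adjusted p = 0.00046) and QDPR (r = -0.297, adjusted p = 0.00336) and rose with BCKDHA (r = 0.262, adjusted p = 0.0145), against 6.09% of genes lower and 12.4% higher. With 5 principal components as covariates none of these was called (adjusted p = 0.236 for GPT, 0.982 for QDPR and 0.982 for BCKDHA), and the slope of QDPR turned to 0.00319. BCKDHA was also not called after quantile normalization (adjusted p = 0.0991). PLIN2, a coat protein of lipid droplets, fell with BCKDHB (r = -0.321, adjusted p = 0.00112) and GPT (r = -0.225, adjusted p = 0.039) and rose with BCKDHA (r = 0.277, adjusted p = 0.00747), against 6.89% and 13.8%. With the principal components the slope of BCKDHA on PLIN2 turned to -0.00516 (adjusted p = 0.954), while BCKDHB stayed called. The relation of GPT to PLIN2 was not called given fat area (adjusted p = 0.32), without the 13 arrays (0.0688), after quantile normalization (0.0824) or with the principal components (0.831). PCK1, the entry enzyme of glucose synthesis, fell with QDPR (r = -0.254, adjusted p = 0.044, background 2.81%), and this call was lost under 8 alternatives, among them without the 13 arrays (adjusted p = 0.0871) and with the second QDPR probe set (0.112).

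Over the whole fasting list QDPR was the enzyme most often opposed. Of 12 measured genes 8 fell with it and 1 rose, where 22.7% of all genes fell. Without the 13 arrays 5 fell, a count for which no share of all genes is given. PDK4, which shuts pyruvate oxidation (r = -0.357), ACADM of fatty acid oxidation (r = -0.361) and PPARGC1A (r = -0.298) fell, and CPT2 rose (r = 0.244). With TAT 3 of 12 rose and 0 fell, against 3.18% and 5.25%, namely IGFBP1 (r = 0.359), KLF15 and PPARGC1A (r = 0.303). With SDS 2 rose and 2 fell, against 8.07% and 13.1%, and 1 rose and 0 fell without the 13 arrays. SDS and TAT were not called with CPT1A, PLIN2 or PCK1, their r lying between -0.205 and 0.158.

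Among the nutrient state genes, ASNS was called with GNMT and BCKDHA, and SCD with GNMT. With ASNS 1 of the 9 rose and 1 fell, and with SCD 1 fell, so these counts say nothing particular about the enzymes. BCKDHA itself was called higher with 28.5% of all named genes and lower with 21.5%. ASNS, asparagine synthetase, fell with GNMT (r = -0.274, rho = -0.196, adjusted p = 0.0139, background 3.62%) and rose with BCKDHA (r = 0.285, rho = 0.207, adjusted p = 0.0118, background 12.2%). Without the 2 pigs of most extreme ASNS the tie to GNMT had r = -0.19 and was not called (adjusted p = 0.112), nor was it given EIF1AY (0.143) or fat area (0.0868). That to BCKDHA was lost given EIF1AY (0.0669) or 5 principal components (0.143). SCD, the stearoyl desaturase, fell with GNMT (r = -0.271, rho = -0.182, adjusted p = 0.0141, background 6.89%), but not on normal scores of SCD (0.111) or with 5 principal components (0.163). PSPH of serine synthesis, dim at a mean of 5.85, fell with GNMT (r = -0.478) and also with SDS (r = -0.278), FAH (r = -0.318) and HPD (r = -0.254). It is 1 of 7 measured genes of an amino acid synthesis list. With GNMT 1 of the 7 rose and 3 fell (10.9% and 7.3% of all genes), and with SDS 1 and 2 (8.07% and 13.1%). With FAH 0 rose and 2 fell (16.8% and 12.5%), and with HPD 0 and 1 (11.6% and 6.77%).

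**Figure D5:**
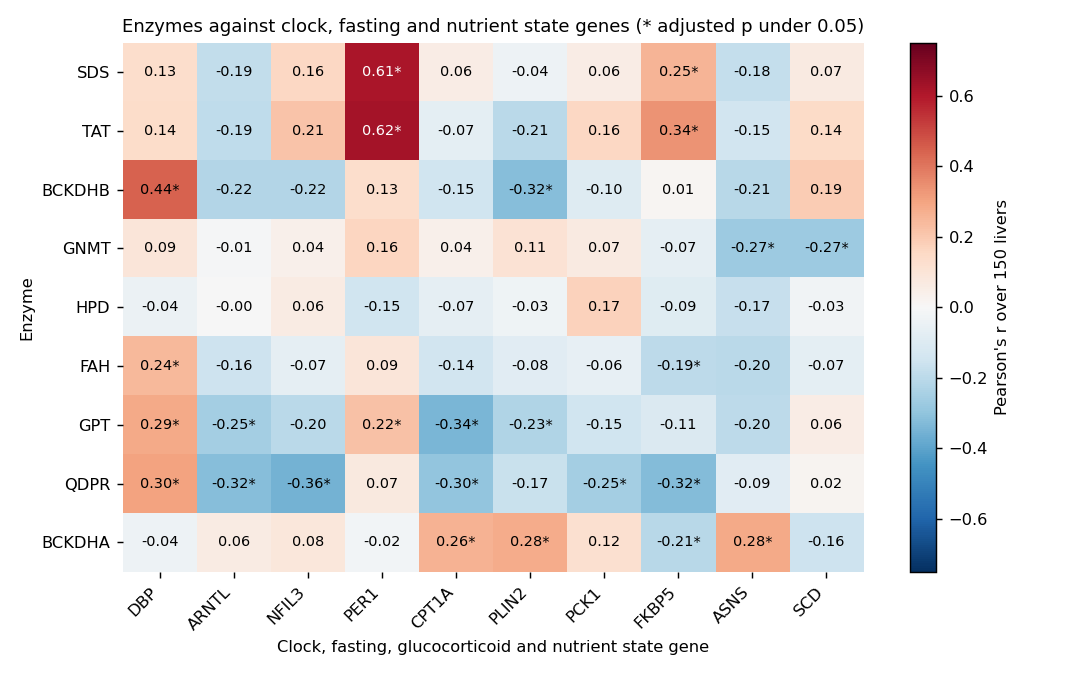
Pearson's r over 150 livers between the 9 enzymes (rows) and 10 genes of clock, fasting, glucocorticoid and nutrient state (columns), red for positive and blue for negative, with a star where the adjusted p is under 0.05. SDS and TAT share the dark column PER1 (0.61 and 0.62), and the row of QDPR is mostly blue from ARNTL to FKBP5.

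The genes most like each enzyme, by Pearson's r over the 150 livers, differed from one enzyme to the next. For SDS they were PER1 (0.61), HYAL3 (0.607) and KYAT1 (0.543), and for TAT HYAL3 (0.712), PER1 (0.623) and KLF15 (0.619). For GNMT they were ARG2 (0.722), KYAT1 (0.706), a kynurenine aminotransferase, and ASL (0.704), and for FAH LHPP (0.658), ASL (0.624) and MSRB1 (0.591). GPT was most like FXYD7 (0.488), HOGA1 (0.482) and AMT (0.474), all lower than for the other enzymes. BCKDHB was most like FECH (0.647), the last enzyme of haem synthesis, TTC38 (0.553) and AGXT2 (0.55), a mitochondrial aminotransferase. BCKDHA was most like AUP1 (0.714), EXOSC5 (0.685) and WDR13 (0.676), and HPD like BLOC1S1 (0.749), CLPTM1 (0.721) and GUK1 (0.706). QDPR was most like ATP5G3 (0.631), MRPL24 (0.616) and GCHFR (0.607), the regulator of the enzyme that starts tetrahydrobiopterin synthesis.

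With the mean of the 9 standardised transcripts, ASL had the highest r (0.738), followed by TTC38 (0.659), LHPP (0.656), FOLR2 (0.643), AAMP (0.641), CIDEB (0.632), KYAT1 (0.615) and GCDH (0.599). At the other end were FAM46A (-0.453), CYP51 of sterol synthesis (-0.442), ANAPC4 (-0.436) and CRK (-0.43). Of the 9 themselves GNMT (0.741) and FAH (0.709) were closest to this mean and BCKDHA (0.411) and TAT (0.415) farthest, each being part of it.

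Several array measures moved with the enzymes. HPD fell with the actin 3 prime to 5 prime difference, a sign of RNA integrity, by 0.22 (SE 0.027) per SD, with r = -0.551 (limma adjusted p = 1.16e-10), the only one of 9 called, where 9.43% of genes fell. Given the quality measures together, FAH and HPD had r = 0.533 and GNMT and HPD had 0.477, against 0.499 and 0.415 without them. Given the 3 prime to 5 prime differences, HPD was no longer called with GPT (adjusted p = 0.0594) or BCKDHA (adjusted p = 0.0851). The array median was lower where 6 of the 9 were higher (background 32.5%), BCKDHA (r = -0.359) and QDPR (r = -0.327) most. The GAPDH difference was called with 5 of the 9 (background 33.2%), SDS having r = -0.274. QDPR and GPT rose with the title number, with r = 0.366 and 0.258 (background 10.6%).

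Each of the 9 enzymes was called with at least 1 of the 41 measured markers of cells other than hepatocytes. BCKDHA had the most, 5 higher and 9 lower, against 28.5% and 21.5% of all genes. SDS had 7 higher and 2 lower (8.07% and 13.1%), HPD 1 higher and 6 lower (11.6% and 6.77%), and QDPR 0 higher and 5 lower (22.6% and 22.7%). FAH had 1 higher and 4 lower (16.8% and 12.5%), GNMT 2 and 3 (10.9% and 7.3%), and BCKDHB 2 and 2 (10.4% and 4.26%). TAT had 1 and 1 (3.18% and 5.25%), and GPT 0 and 1 (8.35% and 7.16%). In a set of 41 the counts for FAH, GNMT, BCKDHB, TAT and GPT were near or below their background. SDS rose with 2 of 3 measured neutrophil markers, S100A9 (r = 0.31) and S100A8 (r = 0.27), with 1 of 4 macrophage markers, VSIG4 (r = 0.347), and with 2 of 5 endothelial markers, CDH5 (r = 0.286) and KDR (r = 0.227). S100A8 averaged 5.16, with a range of 4.25 to 6.11, below the array median. GNMT rose with VSIG4 too (r = 0.366), again 1 of 4 macrophage markers, and fell with DES of stellate cells (r = -0.361). HPD rose with 1 of the 4 macrophage markers, CD14 (r = 0.376), and fell with DES (r = -0.4). DES is 1 of 6 measured stellate cell markers and was dim, with a mean of 6.33. The other markers that fell with HPD are not named here. TAT was called with 0 of 3 neutrophil and 0 of 4 macrophage markers. The part of these cells in the results was not tested.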

How the data were processed

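Per the labels, total liver RNA of 150 pigs was hybridised to 1 Affymetrix array each. The authors deposited log2 signals per probe set (the log2 scale was inferred from their range). GCOS 1.1.1 is named in the submitters' processing notes; how probes were summarised and arrays normalized is not given in the sources used here. Values had 2 decimals and a floor of 4.09, which held 2.75% of them. Array medians ran from 5.8 to 6.1. Of 24123 probe sets 124 controls were left out. Symbols came from the array annotation, matched by Entrez ID for 9961 of 10069 single-symbol probe sets (198 had several symbols, 13732 none); a gene was read from its probe set of highest mean. The files name no genome build, so no coordinates are given.

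The slope of each probe set per SD of a trait or of another gene's level was fitted with limma 3.58.1 (lmFit, eBayes with trend) in R 4.3.3 and adjusted by Benjamini-Hochberg over all probe sets except those of the gene on the x axis (threshold 0.05, two-sided). The code was tested on simulated data. Correlations had permutation tests of 100000 resamples, adjusted over the 36 pairs and 90 reference gene relations together. Shares of all named genes called in the same fit are given as background for the fits over all arrays. Counts without the arrays that stand apart have no such share. An array stood apart when its median correlation lay over 3 MAD below the median; title blocks span 100 numbers (6 to 24 pigs). The number of arrays limits the precision.

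The 9 genes, the gene lists and the reference genes were chosen with earlier results of these data known. Named genes were the 9, the reference genes, for each of the 9 the 3 genes of highest r, the 8 highest and 4 lowest with their mean, up to 4 called genes per list and direction, and 3 genes just outside the choice. Subunits of the branched-chain complex and any other list member were named after their values were seen. Alternatives were quantile normalization, filters on dim probe sets (mean over 6) and flat ones (SD over 0.25), other eBayes settings, normal scores, arrays that stand apart left out, other probe sets, and covariates (a title spline with 4 df, EIF1AY, array median, 3 prime to 5 prime differences, 5 principal components, fat area).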

Additional observations from a re-analysis of the deposited data

How the results depend on the processing

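Of the 22 called pairs, 14 stayed called under every alternative that could be fitted, SDS with TAT and FAH with HPD, QDPR, GPT, GNMT and BCKDHA among them, and 8 did not. The count of called pairs was between 15, without the arrays that stand apart, and 26, with dim probe sets left out, where GPT was fitted only as the x measure. Of the 25 called relations with reference genes 5 stayed called under every alternative: BCKDHB with DBP and PLIN2, SDS with PER1 and FKBP5, and TAT with FKBP5. With 5 principal components 8 of the 25 stayed called and 16 of all 90 relations were called, not the same ones. Under the other alternatives 19 to 26 of the 90 were called. With the second probe sets of PER1 and FKBP5, 4 of 8 stayed called and 5 were called in all. No alternative called any of the 9 for drip loss.

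Reversed signs all had small slopes. For TAT and drip loss (-0.0019) the slope was 0.00902 without the arrays that stand apart, 0.00588 with the title spline, 0.0016 with the array median, 0.00547 with fat area and 0.00657 with the second probe set. For HPD and drip loss it was 0.0119 given the 3 prime to 5 prime differences. With 5 principal components it was 0.00319 for QDPR on CPT1A and -0.00516 for BCKDHA on PLIN2. For GPT it was -0.0243 on the second PER1 probe set. The causes were not tested. The second PER1 and FKBP5 probe sets, leaving out the 2 most extreme pigs, and fat area as a covariate for drip loss were chosen after seeing the data. No paired analysis was possible because all pigs form a single group and their replicate numbers are only names. The dimness of GPT limits what can be read from it.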
